A study of Mus musculus with 20 samples.

Results

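Between pachytene and diplotene of wild-type (WT) mouse spermatocytes, 7 of 8 tested synaptonemal complex genes and 12 of 24 strand exchange genes fell, while 16 of 37 genes of the sperm flagellum and 8 of 31 regulators of cell division rose. Among all tested genes 17.4% fell and 9.08% rose. Many of these list calls, and most of the rises and most of the falls over all genes, depended on single libraries. The genes described here are those with at least 1 FPKM (fragments scaled to transcript length and to library size) in 2 or more of 4 libraries, 2 of WT pachytene and 2 of WT diplotene cells. There were 10671 such genes among the 23235 of the deposited table. Of them 9005 reached 1 FPKM in all 4 libraries, 714 in 3 and 952 in exactly 2, and another 788 genes reached it in 1 library and were left out. The second-highest value of a gene had a median of 1.44 FPKM among those in exactly 2 libraries and 0.703 FPKM among those in 1.

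The series asks how loss of Cxxc1, the CpG-binding subunit of the SETD1 histone H3K4 methyltransferase complexes, affects male meiosis. It holds RNA from pachytene, diplotene and meiosis II (MII) spermatocytes of WT and Cxxc1-null mice, with 2 libraries in each group. All animals were adult males on a C57BL/6 background, and the labels name no other allele or agent for the WT groups. Each library was made by Smart-seq2, an oligo-dT-primed method for full-length cDNA, from a pool of 500 cells gated by flow cytometry. The labels do not state whether a group's libraries are of different animals, so the p-values below measure the spread between libraries, which may be technical. In bulk libraries of this kind, fewer cells of a type and less RNA per cell cannot be told apart.

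In pachytene the homologous chromosomes are joined along their length by the synaptonemal complex, while DNA breaks made earlier are repaired and some of them mature into crossovers. In diplotene the complex comes apart, the homologs stay attached at the crossovers, and the cell prepares for the meiosis I division. The X and Y are held in a silenced sex body through both stages. Many transcripts for sperm structures are made in spermatocytes and stored, long before the sperm is built.

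The libraries of a stage were alike, though not equally so. Pachytene library 1 had a summed FPKM of 918639, and the other 3 libraries had 729057 to 745007. On the log2(FPKM + 1) scale the diplotene libraries correlated with each other at r = 0.976 across tested genes, and the pachytene libraries at r = 0.958. Pachytene library 2 correlated with the diplotene libraries at r = 0.948 and 0.950, and library 1 at 0.918 and 0.902, so library 2 lay nearer to diplotene. Cxxc1 was measured at 11.7 and 17.3 FPKM in pachytene and at 13.7 and 17.6 FPKM in diplotene. These ranges overlapped (log2 fold change 0.12 ± 0.25 SE, adjusted p = 0.778). In the Cxxc1-null libraries it stood between 8.29 and 9.57 FPKM at both stages. RNA of the gene was thus still measured there, and which part of the gene it covers was not tested.

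About 3 in 10 of the genes changed. A limma model of all 12 RNA libraries tested 12956 genes with at least 1 FPKM in 2 or more libraries, and an adjusted p under 0.05 was the threshold. Of these, 26.5% changed between WT pachytene and diplotene, 9.08% upward and 17.4% downward. Among the 10671 genes described here, 3310 changed, with 1159 higher and 2151 lower in diplotene. A change of at least 2-fold in FPKM + 1 was reached by 710 of those that rose and 1404 of those that fell. At least 4-fold was reached by 21 and 178. The added 1 makes these folds smaller than those of FPKM in genes at low level. The median log2 fold change was -0.11 over both sets. In all 3310 called genes both diplotene libraries lay on the same side of both pachytene libraries. That pattern by itself was common, since 24.3% of tested genes had both diplotene libraries above and 38.7% both below.

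How the change divides into rises and falls depended on the scale. Of the genes called on the authors' FPKM scale 35.02% were higher in diplotene, and the share was 49.3% after quantile normalization and 57.7% after all libraries were shifted to a common median. The median log2 fold change of all tested genes was -0.11, 0.04 and 0.10 on these scales. A rise or fall below is therefore relative to a baseline that moves by about 0.2 on the log2 scale. The genes named below that lost their call on either of the other scales are pointed out, and no named gene that passed changed direction. Part of the list was also shaped by the threshold on level, because 616 genes entered through both pachytene libraries alone and 131 through both diplotene libraries alone. Of the called genes, 464 that fell were under 1 FPKM in both diplotene libraries, and 64 that rose were under 1 FPKM in both pachytene libraries.

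**Figure D1:**
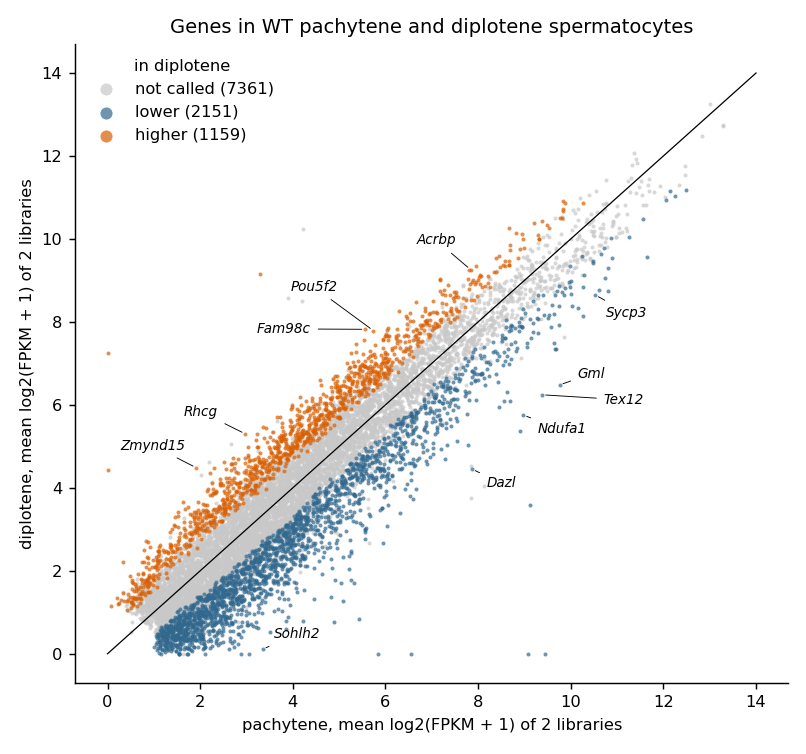
Mean log2(FPKM + 1) of the 2 diplotene libraries (vertical) against that of the 2 pachytene libraries (horizontal), 1 point per gene for all 10671 genes, with the line of equality. Genes called lower in diplotene (blue, 2151) reach farther from the line than those called higher (orange, 1159). At least 4-fold in FPKM + 1 were 178 falls and 21 rises, and 11 of the called genes are short RNA genes.

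The number of calls also rested on single libraries. Without pachytene library 1 there were 326 rises and 1111 falls, and without pachytene library 2 there were 1825 and 2139. Without diplotene library 1 there were 422 and 1324, and without diplotene library 2 there were 368 and 947. In these fits the remaining library of a group is assumed to vary like the other groups. A core of 193 rises and 773 falls was called with each of these 4 libraries left out in turn, and such genes are called stable below. A fit of the 4 libraries alone, which has few degrees of freedom, called 3 genes, against 3554 at an unadjusted p under 0.05, so the calls rest on the spread shared with the other 8 libraries.

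The largest falls ended at different levels, from near 0 in Sohlh2 to 87.2 and 89.4 FPKM in Gml. The 15 largest falls were picked among called genes with no overlap between stages and at least 5 FPKM in their higher stage, with short RNA genes set aside. They ran from -4.58 to -3.22 on the log2 scale. All 15 were stable. Zfp820, a zinc-finger gene, measured 83.7 and 20.8 FPKM in pachytene and 1.43 and 0.322 FPKM in diplotene. Both diplotene libraries lay far below both pachytene libraries (log2 fold change -4.58 ± 0.55, adjusted p = 0.000897). Dazl, an RNA-binding protein that promotes translation in germ cells, measured 361 and 149.9 FPKM in pachytene and 26.8 and 16.3 FPKM in diplotene. Its log2 fold change of -3.42 ± 0.37 (adjusted p = 0.000717) was larger than the spread between the libraries of either stage. Sohlh2, a transcription factor of early germ cells, went from 11.9 and 7.02 FPKM to 0.0664 and 0.0924 FPKM. The log2 fold change was -3.24 ± 0.27 (adjusted p = 0.000594), and both diplotene values were close to 0.

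Several other large falls were in genes with general cellular roles. Tipin, which stabilises replication forks with its partner Timeless, measured 100.1 and 36.6 FPKM in pachytene and 6.71 and 4.26 FPKM in diplotene. Polr2h, a subunit that the nuclear RNA polymerases share, measured 48.9 and 28.3 FPKM and then 2.08 and 2.83 FPKM. Mif, a secreted cytokine, measured 36.3 and 30.1 FPKM and then 1.02 and 1.89 FPKM. The falls on the log2 scale were -3.27 ± 0.40 for Tipin, -3.48 ± 0.30 for Polr2h and -3.82 ± 0.47 for Mif, with adjusted p of 0.000948, 0.000635 and 0.00102. Gml, a gene for a small surface protein of the Ly6 family, had the highest pachytene level of the 15, at 1247 and 600.4 FPKM, and measured 87.2 and 89.4 FPKM in diplotene. Acer3, an alkaline ceramidase, went from 19.7 and 9.12 FPKM to 0.720 and 0.343 FPKM. The other falls of this set were in Ccdc152, Nps, Hemt1, the X-linked Rpl36a and Ndufa1, Gm7334, and Gm561, now named Smim26.

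The largest rises were smaller than the largest falls. The 15 largest ran from 2.02 to 2.57 on the log2 scale. Zmynd15, a repressor in the haploid program of spermatids, measured 1.31 and 5.17 FPKM in pachytene and 20.8 and 22.0 FPKM in diplotene. Its rise of 2.57 ± 0.44 (adjusted p = 0.00371) was stable. Pou5f2, a POU-domain transcription factor of spermatocytes, measured 48.5 and 56.4 FPKM in pachytene and 230.2 and 211 FPKM in diplotene. The libraries of each stage lay close together (2.06 ± 0.27, adjusted p = 0.0013, also stable). In MII its level was 40.7 and 30.8 FPKM, so among the 3 WT stages it was highest in diplotene, while Zmynd15 measured 78.6 and 78.0 FPKM in MII.

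Other stable rises of this set were in Rhcg, an ammonia transporter, Fam98c, Bcl7c, a subunit of SWI/SNF chromatin remodelers, and 1700039E15Rik, now named Slc6a21. Rhcg measured 3.29 and 13.4 FPKM in pachytene and 41.2 and 35.8 FPKM in diplotene. Fam98c measured 26.1 and 81.8 FPKM and then 237 and 214 FPKM. The 2 pachytene libraries differed from each other several-fold in both genes, with library 2 nearer to diplotene. Trp53i11 and Atoh8, a basic helix-loop-helix factor, lost the call without diplotene library 2 (adjusted p = 0.0505 and 0.0597). Ndufa4l2, 4930488L21Rik, Qrich2, Il4i1 and Thop1 lost it without pachytene library 1 or diplotene library 2, with adjusted p from 0.0568 to 0.132. Capn11, a testis calpain, and Map4k1 lost it without pachytene library 1 or diplotene library 1, with adjusted p from 0.0511 to 0.0732. In all 30 of these genes pachytene library 2 lay between pachytene library 1 and the diplotene mean.

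**Figure D2:**
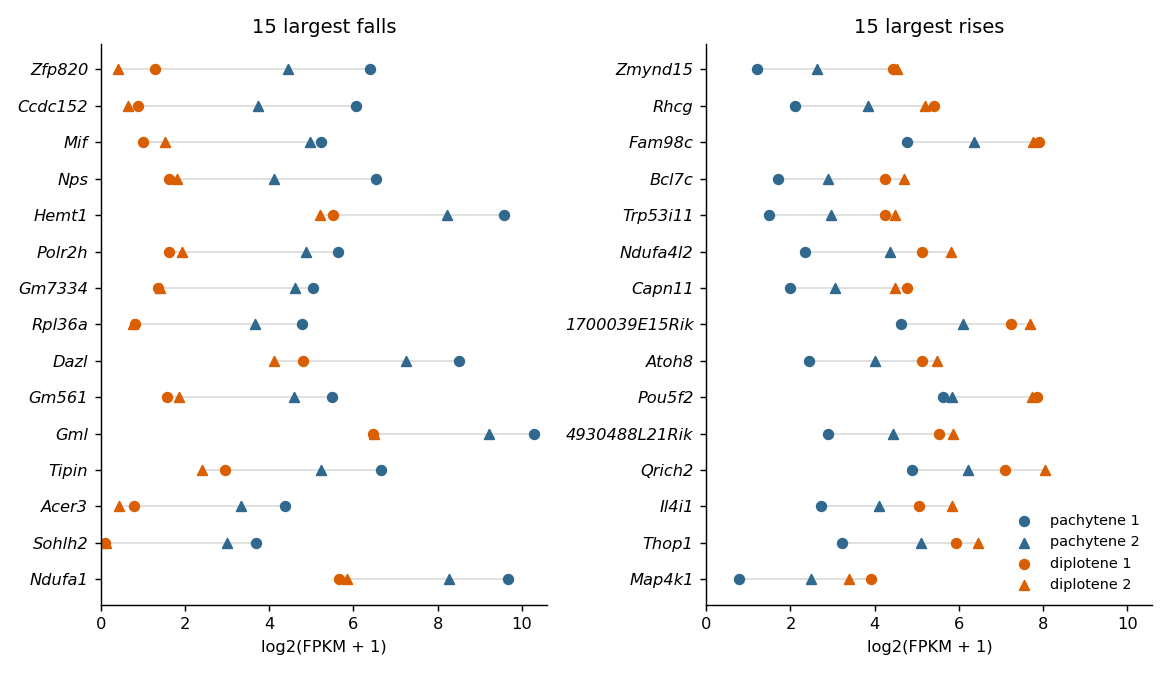
Log2(FPKM + 1) in each WT library for the 15 largest falls (left) and rises (right), with pachytene in blue, diplotene in orange, circles for library 1 and triangles for library 2. Lack of overlap between stages was a condition for picking the 30 genes. Pachytene library 2 lies between pachytene library 1 and diplotene in each.

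Genes of the synaptonemal complex fell almost as a set. Of 8 tested genes 7 were lower in diplotene and none was higher by limma, also at an unadjusted p under 0.05 (0 genes), with a median log2 fold change of -1.92 against -0.11 over all genes. Sycp1, the transverse filament that bridges the paired axes, measured 579.6 and 294 FPKM in pachytene and 63.3 and 71.1 FPKM in diplotene. Sycp3, a lateral element protein, measured 2419 and 904 FPKM and then 426 and 377 FPKM. Tex12, a central element protein, measured 1230.4 and 360.3 FPKM and then 85.1 and 65.6 FPKM. The stages did not overlap in any of the 3 genes, and the log2 fold changes were -2.60 ± 0.33 for Sycp1, -1.88 ± 0.37 for Sycp3 and -3.14 ± 0.48 for Tex12 (adjusted p = 0.00113, 0.00654 and 0.00233). The central element gene Six6os1, listed as 4930447C04Rik, fell from 96.4 and 43.0 FPKM to 7.80 and 7.05 FPKM, and Syce2 from 164 and 102 FPKM to 30.3 and 35.1 FPKM.

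All 5 of these falls were stable. Syce3 lost its call without pachytene library 1 (adjusted p = 0.0516). Sycp2 fell least, from 228 and 203 FPKM to 137 and 113 FPKM, and it lost its call on the common-median scale and without any 1 of 3 libraries, pachytene 1 and diplotene 1 and 2 (adjusted p up to 0.186). Syce1, another central element gene, was the exception. It measured 509 and 486 FPKM in pachytene and 692 and 569 FPKM in diplotene, and it did not pass (0.33 ± 0.19, adjusted p = 0.227). Its level in MII was 560.5 and 606 FPKM, while Tex12 stood at 5.04 and 7.44 FPKM there.

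The promoters of the genes that fell together are shown because 4 of the 8 synaptonemal complex genes hold the same 6 letters in the 250 bases before the start. The letters are CACGTG, the canonical E-box, which reads the same on both strands and was 1 of 5 motifs searched; the genes printed were picked after the matches were seen. It was found in 6.05% of the promoters in the table, counting the first listed start of each of 27025 genes, and in 8.06% of the 10233 promoters matched to tested genes. Among lists with a promoter for at least 80% of their genes, those of the piRNA pathway held it in 7 of 17, of the axis in 2 of 6, of cohesion in 3 of 13 and of oxidative phosphorylation in 6 of 63. It was rarer or missing in some other lists with falls, but X-linked housekeeping genes, of which 7 fell, held it in 2 of 19. It lay in 1 of 16 sex body genes, 1 of 13 spermatogonial markers and 0 of 19 round spermatid markers. Lists without a majority of falls held it too. Genes that respond to stress during sorting, with 0 falls and 1 rise, held it in 3 of 13. Chaperones, with 5 rises and 4 falls, held it in 2 of 18, and acrosome genes in 1 of 18. It was in 0 of 32 sperm flagellum genes. Of the 7 piRNA pathway genes with it, 4 did not pass the test (Piwil1, Mael, Tdrd9 and Ddx4). The sequences are from RefSeq, build GRCm38.p6, which is not the mm9 build of the expression table. They run 5′ to 3′ toward the start and lie at chr3:102936101-102936350 (minus strand) for Sycp1, chr10:88459337-88459586 (plus) for Sycp3, chr9:50561269-50561518 (minus) for Tex12, chr12:72917766-72918015 (minus) for Six6os1, chr3:95559427-95559676 (plus) for the axis gene Hormad1 and chr5:135350045-135350294 (minus) for the piRNA pathway gene Fkbp6. Capitals mark CACGTG and, in Tex12 and Hormad1, GGCGGGAA, an E2F motif searched as TTCCCGCC on both strands, which 1.88% of all promoters in the table and 3.26% of those of tested genes hold.
Sycp1: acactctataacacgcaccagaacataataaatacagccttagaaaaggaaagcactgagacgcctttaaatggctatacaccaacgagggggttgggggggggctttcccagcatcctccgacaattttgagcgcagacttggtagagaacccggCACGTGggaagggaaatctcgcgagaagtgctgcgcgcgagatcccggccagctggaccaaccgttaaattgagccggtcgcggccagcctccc
Sycp3: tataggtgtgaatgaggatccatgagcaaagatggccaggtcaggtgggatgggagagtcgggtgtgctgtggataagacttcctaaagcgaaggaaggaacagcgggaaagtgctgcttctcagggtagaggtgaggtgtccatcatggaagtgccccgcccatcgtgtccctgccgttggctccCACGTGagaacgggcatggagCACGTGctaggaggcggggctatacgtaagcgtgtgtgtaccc
Tex12: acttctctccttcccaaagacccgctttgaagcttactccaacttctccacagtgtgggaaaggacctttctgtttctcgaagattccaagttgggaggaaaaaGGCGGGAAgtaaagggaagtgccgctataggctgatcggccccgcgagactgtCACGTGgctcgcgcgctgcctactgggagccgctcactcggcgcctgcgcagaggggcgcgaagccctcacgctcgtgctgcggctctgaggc
Six6os1: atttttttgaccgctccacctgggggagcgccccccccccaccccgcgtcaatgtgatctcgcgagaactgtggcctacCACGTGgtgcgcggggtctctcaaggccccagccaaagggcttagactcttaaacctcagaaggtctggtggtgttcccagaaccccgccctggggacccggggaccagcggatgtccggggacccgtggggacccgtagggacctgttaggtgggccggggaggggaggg
Hormad1: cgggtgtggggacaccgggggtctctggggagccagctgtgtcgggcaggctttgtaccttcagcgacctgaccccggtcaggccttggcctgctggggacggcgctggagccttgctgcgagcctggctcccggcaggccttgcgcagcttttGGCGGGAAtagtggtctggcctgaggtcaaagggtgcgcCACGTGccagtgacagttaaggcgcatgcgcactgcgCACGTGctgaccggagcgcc
Fkbp6: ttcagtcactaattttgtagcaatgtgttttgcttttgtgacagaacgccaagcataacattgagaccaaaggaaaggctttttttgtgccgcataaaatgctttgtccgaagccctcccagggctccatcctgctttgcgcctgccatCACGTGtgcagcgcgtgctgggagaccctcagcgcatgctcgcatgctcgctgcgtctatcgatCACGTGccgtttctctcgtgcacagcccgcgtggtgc
Sycp3, Hormad1 and Fkbp6 each hold 2 matches, and the other 3 hold 1. A match is a run of letters and was not tested as a site.

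Genes of the chromosome axis and of break formation split. The HORMA-domain axis proteins and the ATPase that removes them were all lower in diplotene. Hormad1 measured 1448 and 466 FPKM in pachytene and 215 and 123 FPKM in diplotene, Hormad2 43.2 and 32.7 FPKM and then 14.5 and 5.74 FPKM, and Trip13 14.9 and 13.1 FPKM and then 6.90 and 4.20 FPKM. The stages did not overlap in any of them (log2 fold changes -2.33 ± 0.49, -1.92 ± 0.42 and -1.22 ± 0.26, adjusted p = 0.00821, 0.00934 and 0.0087). Rec114, listed as 2410076I21Rik, fell from 7.95 and 5.21 FPKM to 1.68 and 2.24 FPKM. Spo11, the enzyme that makes the breaks, measured 169 and 122 FPKM in pachytene and 174 and 92.3 FPKM in diplotene, and its stages overlapped (-0.18 ± 0.34, adjusted p = 0.735). Among the 7 tested genes 4 fell and none rose by limma (1 at an unadjusted p under 0.05), where 17.4% of all tested genes fell. The median log2 fold change was -1.22. None of the 4 was stable: without diplotene library 2 the adjusted p was 0.0654 for Hormad1, 0.0696 for Hormad2 and 0.0719 for Trip13, while without pachytene library 1 only 1 of the 4 passed, and Rec114 lost its call without any 1 of 3 libraries (adjusted p up to 0.112) and on the quantile scale.

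In strand exchange the recombinases pair a broken end with the homolog. Of 24 tested genes 12 fell and 2 rose, where 17.4% of all tested genes fell and 9.08% rose, with a median of -0.60. Dmc1, the meiotic recombinase, went from 10.5 and 2.79 FPKM to 0.107 and 0.133 FPKM. Mnd1, which helps it pair homologs, went from 22.5 and 8.52 FPKM to 1.17 and 0.592 FPKM. The falls were -2.56 ± 0.40 and -3.01 ± 0.53 on the log2 scale (adjusted p = 0.00259 and 0.00417) and were stable, as were those of Spata22, Rad54b, Rpa2 and Rpa3. The list held 7 falls without pachytene library 1 and 7 without diplotene library 2.

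Subunits of the single-strand-binding complex RPA moved in opposite directions. Rpa2 measured 55.4 and 51.8 FPKM in pachytene and 16.6 and 17.8 FPKM in diplotene, and Rpa3 142 and 60.2 FPKM and then 15.7 and 18.6 FPKM. Rpa1, the large subunit, measured 45.1 and 61.0 FPKM and then 124 and 102 FPKM. The log2 fold changes were -1.59 ± 0.22 for Rpa2 (adjusted p = 0.00166), -2.37 ± 0.46 for Rpa3 (adjusted p = 0.0059) and 1.08 ± 0.27 for Rpa1 (adjusted p = 0.0154). The rise of Rpa1 was not stable, with adjusted p up to 0.0954, and that of Nbn, a break-sensing protein, had adjusted p up to 0.0872, each without pachytene library 1 or diplotene library 1, and for Rpa1 also without diplotene library 2.

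Crossover genes went both ways. Of 14 tested genes 4 fell and 3 rose, where 17.4% of all tested genes fell and 9.08% rose. The median of -0.18 (-0.35 without diplotene library 1 and -0.07 without diplotene library 2) was near that of all genes. Those that fell include factors known for stabilising and designating crossovers. Msh4, a subunit of a clamp on recombination intermediates, went from 21.4 and 14.99 FPKM to 4.38 and 3.38 FPKM. Ccnb1ip1, the ubiquitin ligase HEI10 that marks crossover sites, went from 139 and 60.1 FPKM to 16.6 and 10.03 FPKM, and the helicase gene Hfm1 from 50.5 and 35.04 FPKM to 14.3 and 10.4 FPKM. These falls were -1.96 ± 0.30, -2.73 ± 0.36 and -1.70 ± 0.26 (adjusted p = 0.00244, 0.00125 and 0.00256), and they were stable, as was that of Tex11, which reached 1 FPKM in only 1 library and is outside the 10671 genes.

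The crossover genes that rose are known for processing joint molecules. The 7 that did not pass include Msh5, Mlh3, Exo1, Eme1 and Rmi1, so the called genes do not describe the list as a whole. Mus81, a structure-selective nuclease subunit, measured 3.02 and 6.97 FPKM in pachytene and 11.7 and 12.8 FPKM in diplotene. Top3a, a topoisomerase that dissolves joint molecules, measured 2.80 and 6.51 FPKM and then 10.4 and 10.7 FPKM, and the nuclease scaffold Slx4 9.85 and 18.1 FPKM and then 23.0 and 31.0 FPKM. Stages did not overlap in these genes, though pachytene library 2 was the higher of its pair in each. The rises were 1.23 ± 0.30, 1.11 ± 0.31 and 0.95 ± 0.29 (adjusted p = 0.016, 0.0249 and 0.0363), and none was stable (adjusted p up to 0.0886, 0.156 and 0.23 without pachytene library 1, and also lost without either diplotene library).

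**Figure D3:**
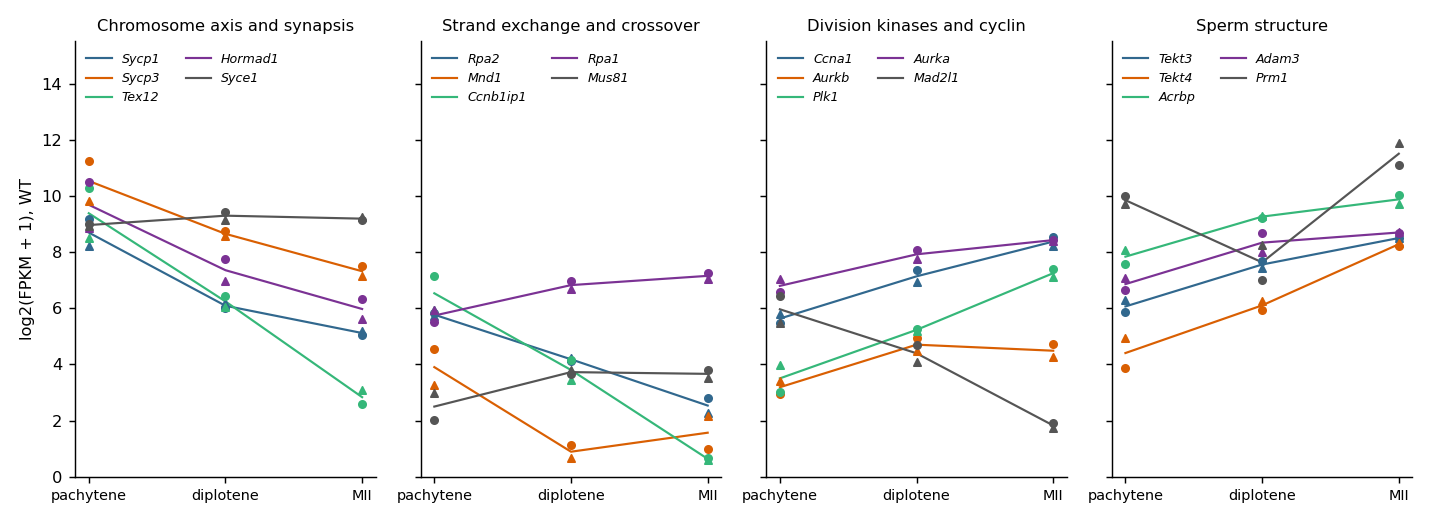
Log2(FPKM + 1) in each WT library at pachytene, diplotene and MII for single genes of meiotic prophase, cell division and sperm structure, with circles for library 1, triangles for library 2 and lines through the stage means. Tex12 drops between pachytene and diplotene and again to 5.04 and 7.44 FPKM in MII, while Plk1 goes from 7.10 and 14.9 FPKM in pachytene to 166 and 138 FPKM in MII.

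Cohesins hold sister chromatids together until they are released in steps. Of 15 tested genes 4 fell and none rose by limma (2 at an unadjusted p under 0.05), where 26.5% of all tested genes changed and 17.4% fell. The median was -0.30, or -0.17 without pachytene library 1. Sgol1, shugoshin, which protects cohesin at centromeres, measured 4.79 and 4.35 FPKM in pachytene and 0.753 and 0.660 FPKM in diplotene. Stag1, a cohesin subunit, measured 21.5 and 21.8 FPKM and then 8.34 and 8.72 FPKM. The libraries of each stage were nearly equal in both genes, and these falls were stable (-1.71 ± 0.21 and -1.25 ± 0.21, adjusted p = 0.00102 and 0.00364). Smc3 and Rad21, the core subunits, had adjusted p of 0.033 and 0.0344, but lost the call without any 1 of the 4 libraries and on both other scales.

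Of 19 tested genes of the sex body and of damage signalling 7 fell and 1 rose, where 17.4% of all tested genes fell, with a median of -0.59. Topbp1, which activates the checkpoint kinase ATR on the unpaired sex chromosomes, measured 31.4 and 29.8 FPKM in pachytene and 10.9 and 9.72 FPKM in diplotene. Chek1, a kinase downstream of ATR, measured 4.10 and 2.92 FPKM and then 1.03 and 1.01 FPKM. Both falls were stable (-1.48 ± 0.23 and -1.15 ± 0.21, adjusted p = 0.00262 and 0.00477), as was that of the ubiquitin ligase gene Ubr2. The paralogs Rad9 and Rad9b, subunits of the checkpoint clamp, went opposite ways. Rad9b measured 43.7 and 47.4 FPKM and then 25.2 and 20.2 FPKM (-0.98 ± 0.21, adjusted p = 0.0084), while Rad9 measured 2.06 and 3.06 FPKM and then 6.07 and 5.63 FPKM (0.96 ± 0.23, adjusted p = 0.0138). Neither was stable, with adjusted p up to 0.0694 for Rad9b and 0.0873 for Rad9, and without diplotene library 2 the list held 3 falls.

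**Figure D4:**
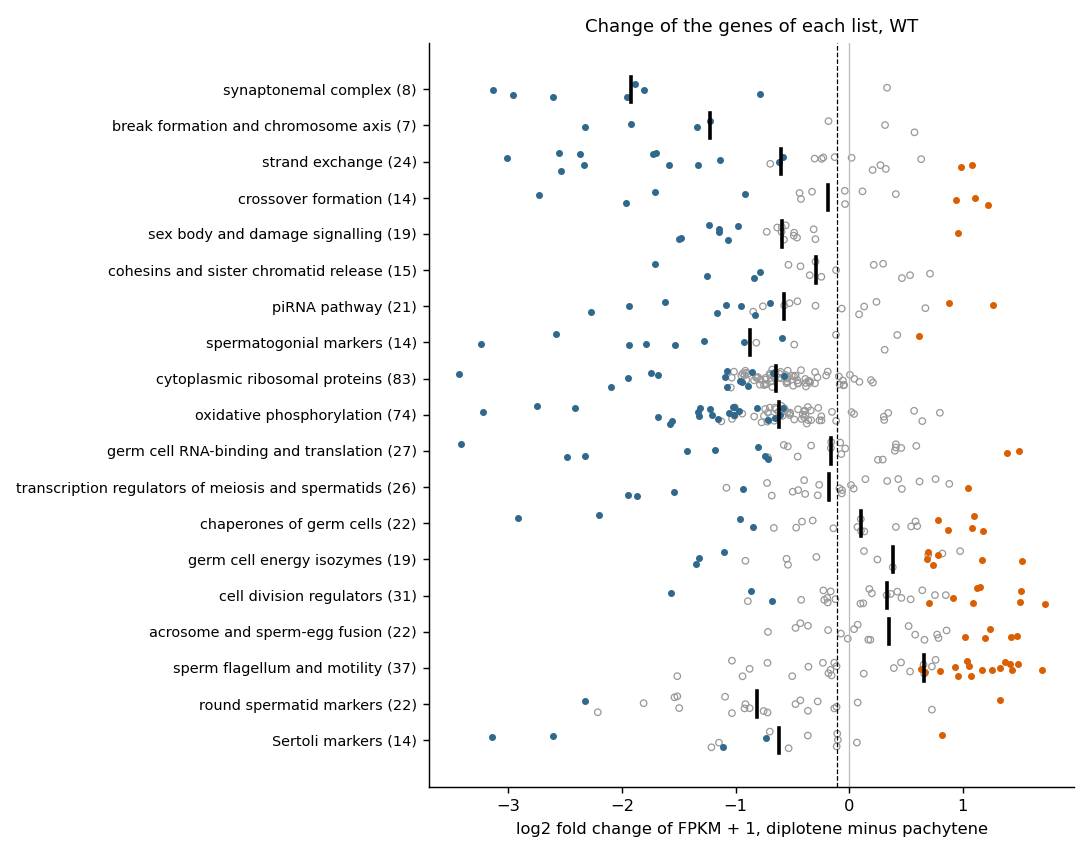
Log2 fold change, diplotene minus pachytene, of each tested gene (1 point) in 19 gene lists, with the list's size in brackets, its median as a black bar, genes called lower in blue, genes called higher in orange and others as open circles. The dashed line is the median of all tested genes (-0.11). The synaptonemal complex list has 7 of 8 genes in blue and the sperm flagellum list 16 of 37 in orange.

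Of 31 tested regulators of cell division 8 rose and 3 fell, where 9.08% of all tested genes rose and 17.4% fell. The median was 0.33, or 0.15 without diplotene library 1 and 0.18 without pachytene library 1. Ccna1, the germ cell cyclin A1, measured 43.1 and 54.9 FPKM in pachytene and 162 and 120.5 FPKM in diplotene. Aurkb, the Aurora kinase of the centromere complex, measured 6.79 and 9.68 FPKM and then 29.4 and 21.4 FPKM. These 2 rises were stable (1.5 ± 0.29 and 1.51 ± 0.30, adjusted p = 0.0056 and 0.00646). Plk1, a kinase that drives disassembly of the synaptonemal complex and entry into division, measured 7.10 and 14.9 FPKM and then 37.7 and 35.5 FPKM (1.73 ± 0.37, adjusted p = 0.00925), and lost the call without pachytene library 1 (adjusted p = 0.0663).

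Other rises of this list were Aurka, Aurkc, Cdc25a, Fzr1 and Incenp, each called with all libraries but lost without either diplotene library. Aurkc, the germ cell Aurora kinase, measured 60.7 and 51.3 FPKM in pachytene and 116 and 97.5 FPKM in diplotene. The main cyclin-dependent kinase of division, Cdk1, measured 70.4 and 43.2 FPKM and then 60.8 and 38.4 FPKM, and its partner Ccnb1 36.2 and 29.9 FPKM and then 56.8 and 34.8 FPKM. Neither passed (adjusted p = 0.711 and 0.28), and Ccnb1 was at 258 and 198 FPKM in MII. Mad2l1, the spindle checkpoint protein MAD2, went down from 86.1 and 43.7 FPKM to 24.99 and 16.1 FPKM (-1.57 ± 0.32, adjusted p = 0.00769, or 0.0627 without diplotene library 2) and stood at 2.74 and 2.37 FPKM in MII. The falls of Ccna2 and Mastl were lost on both other scales, and the list held 3 rises without pachytene library 1 or without either diplotene library.

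Many transcripts for the sperm tail were higher in diplotene. Of 37 tested flagellum and motility genes 16 rose and none fell by limma (1 at an unadjusted p under 0.05), where 9.08% of all tested genes rose, and the median was 0.66. The tektins, filaments of the axoneme, gave some of the clearest rises, though those of Tekt1 and Tekt4 were not stable. Tekt3 measured 56.7 and 76.6 FPKM in pachytene and 203 and 173 FPKM in diplotene, Tekt2 23.4 and 42.7 FPKM and then 85.8 and 86.8 FPKM, and Tekt5 8.57 and 15.9 FPKM and then 31.9 and 30.1 FPKM. Stages did not overlap in these genes (1.49 ± 0.22, 1.42 ± 0.30 and 1.33 ± 0.28, adjusted p = 0.00198, 0.008 and 0.00821), and the rises were stable, as was that of the axonemal dynein gene Dnali1. Odf2, an outer dense fibre protein, measured 150.3 and 333 FPKM and then 553 and 662 FPKM (1.43 ± 0.35, adjusted p = 0.0149), and lost the call without pachytene library 1 or diplotene library 2 (adjusted p up to 0.0888). Without pachytene library 1 the list held 6 rises, without diplotene library 1 it held 8 and without diplotene library 2 it held 7.

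The tektin 2 promoter is shown for another of the 5 motifs and was picked after the matches were seen. This motif, the half-site of RFX factors, was searched as GTTGCC on both strands. It lay in 6 of 32 flagellum gene promoters, in 10.5% of all promoters of the table and in 11.6% of those of tested genes. Among lists with falls it lay in 3 of 13 cohesion, 4 of 19 X-linked housekeeping, 1 of 16 sex body and 0 of 8 synaptonemal complex genes. Of other genes that rose, Acrbp and Capn11 hold 1 match each, and Fzr1 and Pgam2 also hold the half-site. Tekt3, Tekt4, Plk1, Ccna1 and Papolb hold none. Of genes that fell, Polr2h and Ccdc152 hold 1 match each, and Stag1, Trip13 and Rad9b also hold it. These are examples and not a count over all genes that changed. In Tekt2 the half-site occurs once on each strand, at chr4:126325689-126325938 on the minus strand of GRCm38.p6, and capitals mark both.
Tekt2: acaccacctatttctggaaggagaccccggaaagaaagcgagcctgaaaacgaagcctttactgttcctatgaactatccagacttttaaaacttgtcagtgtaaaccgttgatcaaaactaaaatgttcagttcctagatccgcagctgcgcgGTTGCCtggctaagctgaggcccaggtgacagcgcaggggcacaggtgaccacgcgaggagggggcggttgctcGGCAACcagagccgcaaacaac
The 5 other flagellum promoters with the half-site were those of Ropn1l, Spag6, Spag16, Tekt1 and Wdr52, also known as Cfap44.

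The acrosome is the enzyme vesicle over the sperm nucleus. Of 22 tested acrosome genes 5 rose and none fell by limma (0 at an unadjusted p under 0.05), where 9.08% of all tested genes rose, with a median of 0.36. Acrbp, which holds the protease acrosin in its inactive form, measured 191 and 271 FPKM in pachytene and 596 and 629.7 FPKM in diplotene. Adam3, a surface protein needed for sperm passage through the oviduct, measured 99.1 and 134 FPKM and then 406 and 255 FPKM. With Adam1b these were the stable rises (1.42 ± 0.27 for Acrbp and 1.48 ± 0.28 for Adam3, adjusted p = 0.00593 and 0.00585). Acr, acrosin itself, rose from 67.4 and 135 FPKM to 229 and 211 FPKM, but lost the call without pachytene library 1 or either diplotene library (adjusted p up to 0.0706). Without diplotene library 1 the list held 3 rises.

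Markers of round spermatids went the other way in sum. The 22 markers summed to 2588 and 2287 FPKM in the pachytene libraries, 503 and 1029 FPKM in the diplotene libraries and 10271 and 13595 FPKM in MII. Their median log2 fold change was -0.81 (-0.30 without diplotene library 1 and -1.31 without diplotene library 2), with 1 rise, Tekt5, which is also in the flagellum list, and 1 fall, the transition protein gene Tnp1. Tnp1 measured 460.3 and 341 FPKM in pachytene and 54.2 and 112 FPKM in diplotene (-2.33 ± 0.74, adjusted p = 0.0427), and lost the call on the common-median scale and without any 1 of the 4 libraries. Prm1, a protamine that packs sperm DNA, measured 1020.4 and 829.5 FPKM and then 128 and 305 FPKM (adjusted p = 0.0616). In the overlapping list of 13 genes of the spermatid nucleus 2 fell and none rose by limma (0 at an unadjusted p under 0.05), where 17.4% of all tested genes fell. Neither fall was stable. The median was -1.09 (-0.71 without diplotene library 1 and -1.37 without diplotene library 2).

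Genes of the piRNA pathway, whose small RNAs silence transposons and mark other transcripts in the male germ line, changed both ways. Of 21 tested genes 8 fell and 2 rose, where 17.4% of all tested genes fell and 9.08% rose, with a median of -0.57. Fkbp6, a co-chaperone for loading piRNAs, measured 174 and 145 FPKM in pachytene and 29.7 and 34.4 FPKM in diplotene. Piwil2, a PIWI protein, measured 104 and 97.5 FPKM and then 33.3 and 31.0 FPKM, and Asz1, a mitochondrial scaffold, 155 and 79.1 FPKM and then 32.5 and 24.5 FPKM. The falls were -2.28 ± 0.21, -1.62 ± 0.21 and -1.94 ± 0.32 (adjusted p = 0.000635, 0.00118 and 0.00309) and, with that of the helicase gene Mov10l1, were stable. The list held 5 falls without pachytene library 1 and 4 without diplotene library 2.

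Piwil1, the PIWI protein of pachytene piRNAs, measured 213 and 240.3 FPKM in pachytene and 136 and 169.8 FPKM in diplotene and did not pass (-0.57 ± 0.23, adjusted p = 0.0942). Tdrd6 and Tdrd7, tudor-domain proteins of the chromatoid body, rose from 37.5 and 62.2 FPKM to 106 and 131 FPKM and from 34.6 and 43.9 FPKM to 73.7 and 71.5 FPKM. The rises were 1.26 ± 0.26 and 0.88 ± 0.19 (adjusted p = 0.00785 and 0.00925) but not stable, since both lost the call without diplotene library 2 (adjusted p = 0.0613 for Tdrd6, and up to 0.0527 for Tdrd7).

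Among 27 tested genes of RNA binding and translation 8 fell and 2 rose, where 17.4% of all tested genes fell and 9.08% rose. The median was -0.16, which ran from -0.29 without pachytene library 1 to -0.09 without pachytene library 2. Cpeb1, which controls poly(A) tails of stored transcripts, measured 7.23 and 5.59 FPKM in pachytene and 0.222 and 0.411 FPKM in diplotene (-2.49 ± 0.18, adjusted p = 0.000594). Both genes that rose are germ cell versions of general poly(A) factors. Pabpc2, a poly(A)-binding protein, measured 129.7 and 182 FPKM and then 480.2 and 397 FPKM, and Papolb, a cytoplasmic poly(A) polymerase, 62.4 and 86.4 FPKM and then 215 and 175 FPKM. These rises (1.5 ± 0.24 and 1.39 ± 0.25, adjusted p = 0.00266 and 0.0045) were stable, as were the falls of Dazl, Cpeb1, Tsn and Paip2b, and without pachytene library 1 or either diplotene library these 4 were the falls left.

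Of 26 tested transcription regulators of meiosis and of spermatids 4 fell and 1 rose, with a median of -0.17 (-0.29 without pachytene library 1). The share that fell, 15.4%, was near the 17.4% of all tested genes. Ythdc2, an RNA helicase needed for meiotic entry and progress, measured 23.7 and 15.1 FPKM in pachytene and 4.998 and 3.98 FPKM in diplotene. Taf7l, a germ cell subunit of the general factor TFIID, measured 4.91 and 5.99 FPKM and then 0.576 and 0.763 FPKM, and Taf4b, another, 4.49 and 4.55 FPKM and then 0.864 and 0.922 FPKM. These falls were stable (-1.87 ± 0.28, -1.95 ± 0.32 and -1.54 ± 0.24, adjusted p = 0.00229, 0.00309 and 0.00266). Zfp541, part of a histone deacetylase complex of spermatocytes, rose from 14.99 and 24.3 FPKM to 36.9 and 44.5 FPKM, without being stable (adjusted p up to 0.134). Among 19 tested writers and erasers of H3K4 methylation, the pathway that Cxxc1 belongs to, only Kdm5a and Wdr5 changed, both downward, and neither was stable.

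Genes for ribosomes and for respiration had medians below that of all genes. Of 83 tested cytoplasmic ribosomal protein genes 14 fell and none rose by limma (0 at an unadjusted p under 0.05), and 69 had both diplotene libraries below both pachytene libraries, a pattern of 38.7% of all tested genes. This share of falls, near the 17.4% of all tested genes, stood beside a median of -0.65, and only Rpl36a was stable. Of 74 oxidative phosphorylation genes 22 fell and none rose by limma (2 at an unadjusted p under 0.05), with a median of -0.61 (-0.37 without pachytene library 1). On the common-median scale the 2 medians were -0.44 and -0.41, with 8 ribosomal falls and 10 falls and 2 rises in oxidative phosphorylation. Single libraries weighed on both lists. The ribosomal falls numbered 2, 23, 1 and 4 without pachytene libraries 1 and 2 and diplotene libraries 1 and 2 in turn, and the oxidative phosphorylation falls 6, 40, 5 and 5.

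The falls that did not depend on 1 library were large. Atp5g2, a membrane ring subunit of ATP synthase, measured 275 and 175 FPKM in pachytene and 34.5 and 29.2 FPKM in diplotene (-2.75 ± 0.29, adjusted p = 0.000689). Ndufa4 measured 285 and 119.5 FPKM and then 27.9 and 41.3 FPKM (-2.41 ± 0.40, adjusted p = 0.00328), and the X-linked complex I gene Ndufa1 816 and 309 FPKM and then 49.7 and 56.2 FPKM. The fourth was Atp5g3. The mitochondrial chaperones were alike in this: Hspe1 measured 109.9 and 56.1 FPKM and then 8.58 and 10.5 FPKM, and its partner Hspd1 11.6 and 5.29 FPKM and then 1.04 and 0.838 FPKM (-2.92 ± 0.33 and -2.20 ± 0.35, adjusted p = 0.000828 and 0.00275, both stable). Over the 22 chaperones tested 5 rose and 4 fell, where 9.08% of all tested genes rose and 17.4% fell. The rises were lost without pachytene library 1 or diplotene library 2. Hspa2, the spermatocyte HSP70, measured 1071 and 781 FPKM and then 864 and 798 FPKM (adjusted p = 0.765).

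No change among germ cell versions of energy enzymes was stable. Of 19 tested genes 6 rose and 3 fell, where 9.08% of all tested genes rose and 17.4% fell. The median was 0.38 (0.60 without pachytene library 2), and most of the calls were lost without pachytene library 1. Pgam2, a phosphoglycerate mutase, measured 505 and 695 FPKM in pachytene and 1281 and 1391 FPKM in diplotene (1.17 ± 0.26, adjusted p = 0.00991). Cyct, the testis cytochrome c, fell from 2879 and 1258 FPKM to 744 and 755 FPKM (-1.34 ± 0.32, adjusted p = 0.0138). Ldhc, the testis lactate dehydrogenase and one of the most abundant transcripts, measured 9758 and 6878 FPKM and then 10502 and 9029 FPKM, with overlapping stages (adjusted p = 0.469).

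Genes of the X chromosome were low at both stages and lower in diplotene. The X is silenced in the sex body of spermatocytes. Of 407 tested X-linked genes 74 fell, a share close to the 17.4% of all tested genes, and none rose by limma (0 at an unadjusted p under 0.05, and 1 on each of the other scales), where 9.08% of all tested genes rose. The X median was -0.32, against -0.10 over autosomal genes, and 350 of the 407 genes had a negative and 54 a positive log2 fold change. X-linked genes made up 0.229% and 0.169% of summed FPKM in pachytene, 0.105% and 0.115% in diplotene and 0.859% and 0.788% in MII. The pachytene and diplotene values did not overlap, and the exact two-sided permutation p was 0.333, the smallest that 2 libraries against 2 allow. Of the 10671 genes 132 are X-linked, and 60 of these entered through both pachytene libraries alone, so the 57 that fell among them were in part selected by that threshold.

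Single X-linked genes differed in level. Prdx4, a peroxiredoxin of the secretory pathway, measured 51.6 and 25.04 FPKM in pachytene, 3.05 and 3.26 FPKM in diplotene and 57.9 and 61.1 FPKM in MII. Hprt, a purine salvage enzyme, measured 3.49 and 2.88 FPKM in pachytene and 0.124 and 0.0577 FPKM in diplotene, so it entered through its pachytene libraries. The falls were -3.16 ± 0.48 for Prdx4 and -1.94 ± 0.24 for Hprt (adjusted p = 0.00229 and 0.00105). Of the 74 X-linked falls 22 were stable. On the Y chromosome 1 of 5 tested genes fell and none rose by limma (0 at an unadjusted p under 0.05), namely Eif2s3y, from 5.12 and 5.25 FPKM to 1.41 and 2.03 FPKM.

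Autosomal copies of X-linked genes supply the function while the X is silent, and the centrin and phosphoglycerate kinase pairs show the levels of copy and parent. Cetn2, an X-linked centrin, measured 2.34 and 3.93 FPKM in pachytene and 0.0725 and 0.336 FPKM in diplotene, while its autosomal copy Cetn1 measured 1296 and 919 FPKM and then 1105 and 1470.3 FPKM. Cetn2 fell (-1.76 ± 0.27, adjusted p = 0.00229), and Cetn1 did not pass (adjusted p = 0.634). Pgk2, the copy of the glycolytic gene Pgk1, rose from 115 and 126 FPKM to 219 and 199 FPKM (0.78 ± 0.23, adjusted p = 0.0317), without being stable (adjusted p up to 0.134). Pgk1 measured 2.504 and 1.46 FPKM and then 0.936 and 0.414 FPKM (adjusted p = 0.0641). Among other copies Utp14b rose by 0.78 on the log2 scale. Pdha2 (-0.29), Cstf2t (-0.61), Rpl10l (-0.45) and Rbmxl2 (-0.45) had negative changes that did not pass. Of 12 tested copies 3 rose and 1 fell, none of them stably, and the difference between copy and parent was not tested.

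**Figure D5:**
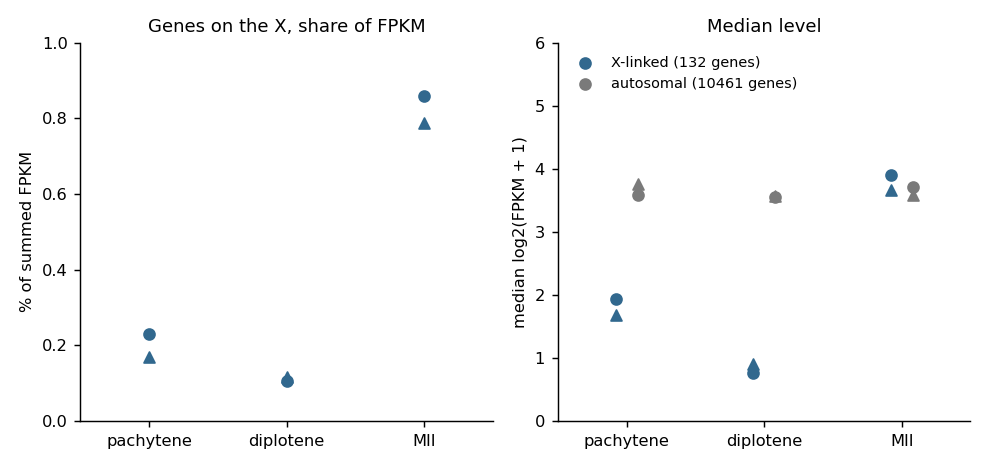
Share of summed FPKM on the X (left, percent) and median log2(FPKM + 1) of X-linked (blue) and autosomal (grey) genes among the 10671 (right) in each WT library, with circles for library 1 and triangles for library 2. The X-linked median stands at 1.94 and 1.68 in pachytene, 0.757 and 0.908 in diplotene and 3.9 and 3.66 in MII, while that of autosomal genes stays between 3.55 and 3.76. Of the 132 X-linked genes 60 entered through both pachytene libraries alone, so their pachytene and diplotene medians were in part set by that threshold. Over all 407 tested X-linked genes the median was 0.726 and 0.634 in pachytene and 0.238 and 0.272 in diplotene.

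Markers of spermatogonia and early meiosis summed to 155 and 136 FPKM in pachytene and 65.1 and 55.8 FPKM in diplotene. Of 14 tested 8 fell and 1 rose, where 17.4% of all tested genes fell and 9.08% rose, with fewer falls without either diplotene library. The median log2 fold change was -0.87, or -0.75 without diplotene library 2. Stra8, the retinoic acid target of meiotic entry, measured 2.80 and 3.86 FPKM in pachytene and was listed at 0 and at 0.264 FPKM in diplotene (-1.93 ± 0.20, adjusted p = 0.000666, stable). Uchl1 measured 14.95 and 26.4 FPKM and then 4.45 and 5.74 FPKM. Id4 made up most of the sums, at 112 and 77.8 FPKM in pachytene and 55.8 and 42.5 FPKM in diplotene. The log2 fold change was negative in 11 of the 14 tested genes and positive in 3, namely Gfra1, Nanos3 and Egr4. In sum these markers thus stood higher in the pachytene libraries, and their part in the prophase results was not tested.

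Markers of Sertoli cells, the nurse cells of the tubule, summed to 84.9 and 74.2 FPKM in pachytene, 21.6 and 18.3 FPKM in diplotene and 635 and 484 FPKM in MII. Their part in the MII levels was not tested. Of 14 tested genes 4 fell and 1 rose, where 17.4% of all tested genes fell and 9.08% rose. The median was -0.62 (-0.33 without pachytene library 2), and falls were fewer without any 1 of the 4 libraries. Ctsl was the highest of these markers in both pachytene libraries, at 38.9 and 22.0 FPKM. In pachytene Cst12 measured 20.2 and 12.7 FPKM, Clu 5.49 and 18.3 FPKM and Tjp1 7.12 and 6.75 FPKM. Others of the list were near 0, with Sox9, Amh and Gata4 at most 0.143, 0.110 and 0.0757 FPKM in any of the 4 libraries. Of the 14 tested genes 12 had a negative and 2 a positive log2 fold change. Dhh was higher in diplotene, at 2.63 and 2.66 FPKM, than in pachytene, at 0.878 and 1.26 FPKM. Markers of Leydig cells summed to 17.9 and 43.2 FPKM and then 48.0 and 75.4 FPKM, mostly through Insl3, while Cyp11a1 was listed at 0 in both pachytene libraries and at 0.181 and 0.0842 FPKM in diplotene. Markers of peritubular, endothelial and blood cells summed to 20.7 and 8.19 FPKM and then 4.30 and 6.16 FPKM.

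The same step in Cxxc1-null cells involved largely the same genes. Between Cxxc1-null pachytene and diplotene 11.9% of tested genes rose and 17.4% fell. Of the 1177 tested genes that rose in WT, 885 also rose in the null, or 75.2% of the WT list and 57.5% of the null list. Of the 2254 that fell, 1755 also fell, which is 77.9% of the WT list and 77.8% of the null list, and 0 genes were called in opposite directions. Among the 30 genes with the largest changes 14 of 15 rises and all 15 falls were also called in the null. The exception was Map4k1, at 0.722 and 4.61 FPKM in WT pachytene and 14.1 and 9.54 FPKM in WT diplotene. Its log2 fold change was 2.02 in WT and 0.81 in the null (adjusted p = 0.214), and the difference of -1.21 did not pass (adjusted p = 1).

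A test of whether the step differed between the genotypes called 0.0232% of tested genes. These were 3 short RNA genes that were listed at 0 in every WT library and are outside the 10671. None of the 10671 genes passed by limma, where 186 had an unadjusted p under 0.05 and the smallest adjusted p was 0.509. With 2 libraries per group this does not show that the step was alike.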

How the data were processed

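RNA of 12 libraries was analysed, and the 8 H3K4me3 chromatin libraries of the series were not analysed here. The authors deposited 1 table of FPKM per gene, already normalized for gene length and library size. TopHat2 2.1.1, Cufflinks 2.2.1 and build mm9 are named per the submitters' processing notes. The number of reads behind a value is unknown, so no counting interval could be given. Pseudogenes and near-identical copies may share reads.

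Values were taken as log2(FPKM + 1). Genes with at least 1 FPKM in 2 or more of the 12 libraries (12956) were fitted with limma 3.58.1 in R 4.3.3, using group means, a variance trend and 6 residual degrees of freedom. Adjusted p-values are limma's moderated test with Benjamini-Hochberg adjustment over all 12956 genes, two-sided, with a threshold of 0.05. Errors are standard errors. Named genes were the 15 largest called changes each way with a mean of at least 5 FPKM in the higher stage, no overlap between stages and short RNA genes left out (11 were called), and in each of 29 gene lists the called members and up to 4 others. The genes and lists were chosen with earlier results of these data known, so the lists are described and not tested as sets. Stable, in the text, means called in each of 4 fits that leave out 1 WT library. The self-test on simulated data for WT diplotene minus pachytene ran on 12956 genes and recovered 11.6% of the simulated 2-fold changes. For 4-fold changes it recovered 80% and for 8-fold 95.6%, with 4.2 false calls on average. It made 250 changes of each size over 5 runs, only in genes above a floor in pachytene. Noise was drawn independently for each gene. In the data 26.5% of tested genes were called, and libraries may deviate in many genes together. Whether these rates hold for the data was therefore not tested.

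Promoters came from RefSeq (GRCm38.p6). They matched 77.1% of the genes that rose and 79.9% of those that fell, under the 80% required, so a comparison of GC content or motifs between those sets is void and none is given. Alternatives covered the pseudocount, the filter, 2 other scalings, the libraries fitted, a replicate term and each library left out. Some called genes are not reported here by name.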

Additional observations from a re-analysis of the deposited data

Results flagged for a closer look

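The change from pachytene to diplotene differed between the genotypes in 3 short RNA genes, by the test of that difference in limma. The difference of the log2 fold changes, null minus WT, was 7.12 for Mir487b, 6.32 for Mir5113 and 4.27 for Scarna8, with adjusted p of 7.55e-06, 5.24e-07 and 3.11e-06. All 3 were listed at 0 in every library except the 2 Cxxc1-null diplotene libraries. There Mir487b was at 189 and 101 FPKM, Mir5113 at 85.2 and 73.1 FPKM and Scarna8 at 17.7 and 18.9 FPKM. None is among the 10671 genes. FPKM is divided by a very short length in such genes, and the number of reads behind these values is unknown.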

How the results depend on the processing

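Of the 213 genes called among those named or listed, each had the same direction in every alternative that fitted it (193 were in the fit with at least 5 FPKM, and 212 in that of the 10671 genes only). The majority of calls turned from falls to rises on the common-median scale, where 57.7% were rises. The number of calls moved more. The 3310 called genes became 2080 with the 6 WT libraries only and 3 with the 4 WT libraries only, and 1315 to 3964 with 1 library left out. Rises, 1159, became 2000 on the common-median scale, 564 with 6 WT libraries, 1 with 4 and 326 to 1825 with 1 library left out. Falls, 2151, became 2 with 4 WT libraries and 947 to 2139 with 1 library left out. The cause of these shifts was not tested beyond the fewer libraries fitted. Same-numbered pachytene and diplotene WT libraries deviated together at r = 0.294, but there are only 2 pairs and no label ties them. With a replicate block within genotype there were 1752 rises, and with a replicate block in the 4 WT libraries only 1982 calls, 568 rises and 1414 falls. X-linked falls, 74, became 113 with a pseudocount of 0.1, 43 with at least 5 FPKM required, 47 after quantile normalization, 48 on the common-median scale, 0 with 4 WT libraries and 28 to 82 with 1 left out. Genes whose step differed between genotypes, 3, became 0 when only the 10671 genes were fitted or short RNA genes were left out, and 3 to 7 with 1 library left out. Leaving out null libraries was added after seeing the data. Depth is unknown.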

Other observations

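Other gene lists are given for WT pachytene against diplotene, where 26.5% of all tested genes changed and 17.4% fell. Of 21 tested X-linked housekeeping genes 7 fell and none rose by limma (0 at an unadjusted p under 0.05), with a median log2 fold change of -0.54. The median was -0.49 without diplotene library 1 and -0.59 without diplotene library 2. Falls were fewer without either of these or without pachytene library 1. Of 8 multicopy X-linked genes 1 fell. Among 15 genes that respond to stress during sorting Jun alone changed, from 0.469 and 0.701 FPKM in pachytene to 1.22 and 1.95 FPKM in diplotene (0.69 ± 0.19, adjusted p = 0.0242 by limma). It lost the call without pachytene library 1 or diplotene library 2. Among 6 interferon-stimulated genes 2 fell and none rose by limma (1 at an unadjusted p under 0.05). Of 8 Leydig cell markers 1 fell, and of 4 tested markers of peritubular, endothelial and blood cells 0 were called by limma (0 at an unadjusted p under 0.05).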
